A study of Capsicum annuum with 4 samples.

Results

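ASR1 and AOX1a are 2 of the 38 pepper genes in the list of homologs of tomato fruit development and ripening genes used here, and 2 of the 35884 gene models that were counted. The study searched more tomato genes than this list holds, and whether these samples entered the choice of its genes is not given in the sources used here. They were chosen by their gene identifiers in that list, CA.PGAv.1.6.scaffold264.4 for ASR1 and CA.PGAv.1.6.scaffold1731.3 for AOX1a. The names are those of the tomato query proteins. The study found the pepper homologs by a protein sequence search (BLASTp) and lists an E-value and a bit score per alignment. Those scores were not used here, and no sequence was compared here. Whether the pepper gene called ASR1 is the ortholog of tomato ASR1 was thus not checked. The data are RNA-Seq counts of whole fruits (pericarp, placenta and seeds) of Chiltepin, the wild pepper Capsicum annuum var. glabriusculum, at the mature red stage, 68 days after anthesis (DAA), and at the immature green stage, 20 DAA. The plants were wild type, were grown in a greenhouse and received no treatment. Each stage has 2 libraries, and each library is the pooled RNA of 6 fruits, with a different collection of fruits for each replicate.

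ASR proteins (abscisic acid, stress and ripening) are hydrophilic plant proteins whose genes respond to abscisic acid and water deficit. In tomato, ASR1 is known as a zinc-dependent DNA-binding protein that accumulates during ripening. AOX1a is an alternative oxidase, an enzyme of the inner mitochondrial membrane that passes electrons from ubiquinol to oxygen and bypasses the cytochrome pathway, so that the energy is released as heat. In tomato, alternative oxidase is studied in the respiration of ripening fruits and in the response to stress. Pepper is a non-climacteric fruit, that is, its ripening is not driven by a burst of ethylene and respiration.

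The gene model of ASR1 lies on chromosome 4 of the CM334 version 1.6 genome, from 197519699 to 197520878 on the plus strand. It has 2 exons of 657 and 183 bp, separated by an intron of 340 bp. The model of AOX1a lies on chromosome 1, from 30762754 to 30764733 on the plus strand. It has 4 exons of 432, 129, 489 and 60 bp, with introns of 294, 481 and 95 bp between them. All exons of the deposited annotation are coding, with no UTR, so that the coding length is 840 bp for ASR1 (280 codons with the stop) and 1110 bp for AOX1a (370 codons with the stop). RefSeq (assembly UCD10Xv1.1) lists the homologs of both genes in cv. Zunla-1 as protein coding, with 2 transcripts for ASR1 and 1 for AOX1a.

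The libraries held from 12139415 to 26130664 counts on genes, with the lowest total in replicate 1 at 68 DAA. The stage labels were checked against marker genes picked with earlier results known. PSY1, PG2, SGR1, FUL1 and both MADS-RIN genes were higher at 68 DAA, with a log2 fold change of at least 4.32, and GLK2 and ARF4, markers of green fruit, were lower. Other tomato ripening genes of the homolog list were lower at 68 DAA as well. They included LeSPL-CNR (log2 fold change -7.27), FUL2 (-4.69), Alpha-mannosidase (-2.98) and Beta-hex (-1.23). Markers of seed, placenta and pericarp cells were not analysed here. Because whole fruits were ground, a change in the RNA per cell and a change in the share of the cells that express a gene cannot be told apart.

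Both genes were higher in mature than in immature fruits, each by about 2-fold. ASR1 had 15507 and 33367 counts in replicates 1 and 2 at 68 DAA, against 17352 and 17519 counts at 20 DAA. Scaled to the TMM-normalized size of each library, these counts correspond to 1332 and 1475 CPM (counts scaled to a common library size) at 68 DAA and to 646 and 750 CPM at 20 DAA. The libraries at 68 DAA were both above those at 20 DAA, and the lowest level at 68 DAA was 1.78 times the highest at 20 DAA. ASR1 averaged 1404 ± 101 CPM at 68 DAA and 698 ± 73.6 CPM at 20 DAA (SD, n = 2 each). The change was larger than the spread between replicates, with a log2 fold change of 1.01 (95% interval from 0.56 to 1.45, adjusted p = 0.00356, edgeR quasi-likelihood test).

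AOX1a, at a much lower level, showed the same order of the libraries. It had 526 and 1149 counts in replicates 1 and 2 at 68 DAA, against 591 and 608 counts at 20 DAA. Its levels were 45.2 and 50.8 CPM at 68 DAA and 22.0 and 26.0 CPM at 20 DAA. The stages did not overlap, and the exact 95% counting interval of the lowest library at 68 DAA (41.4 to 49.2 CPM) lay above that of the highest library at 20 DAA (24.0 to 28.2 CPM). The mean was 48.0 ± 3.96 CPM at 68 DAA and 24.0 ± 2.85 CPM at 20 DAA (SD, n = 2 each). The log2 fold change was 1.00 (95% interval from 0.66 to 1.34, adjusted p = 0.00115 from the same edgeR test).

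**Figure D1:**
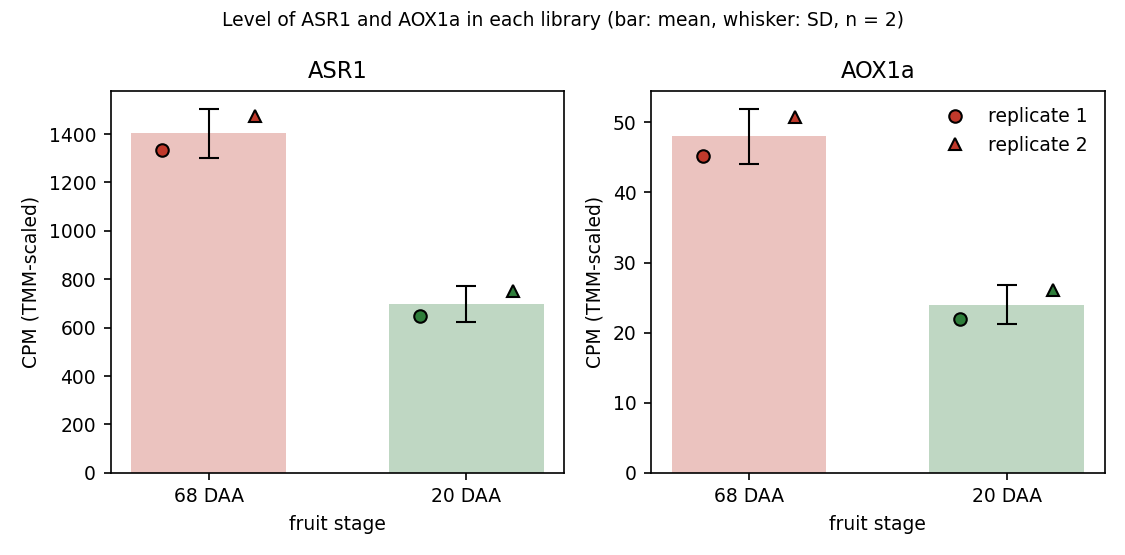
Level of ASR1 (left) and AOX1a (right) in CPM, with bars for the mean of each stage, whiskers for the SD of 2 libraries and points for the libraries. For ASR1 the libraries at 68 DAA sit at 1332 and 1475 CPM, above those at 20 DAA at 646 and 750 CPM, and for AOX1a at 45.2 and 50.8 CPM, above 22.0 and 26.0 CPM.

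Neither gene reached the 4-fold change that the study sets for induced genes, and both intervals ended below it, at 2.74-fold for ASR1 and 2.53-fold for AOX1a. A gene was called a DEG (differentially expressed gene) here at a false discovery rate (FDR) under 0.01 with a change of at least 4-fold. Both genes thus passed the FDR limit alone, with a change under 4-fold, as did 17.5% of the 17160 tested genes in the same direction. Of all tested genes, 57.7% had an FDR under 0.01, with 25.7% higher and 32.0% lower at 68 DAA, and 8.22% were DEGs with a higher level at 68 DAA. Both libraries at 68 DAA were above both libraries at 20 DAA in 41.8% of the tested genes. A log2 fold change at least as high as that of ASR1 was found for 18.6% of them, and at least as high as that of AOX1a for 18.8%. These calls rest on the spread that edgeR estimates across genes, since permuting 2 libraries against 2 gives p = 0.333 at the least (exact, two-sided).

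The calls were sensitive to leaving out a library at 20 DAA, which leaves 1 library at that stage. Whether a lost call reflects the values of that library or the lost replication was not tested. Without replicate 1 at 20 DAA the log2 fold change was 0.87 for ASR1 and 0.85 for AOX1a, and neither passed the FDR limit (adjusted p = 0.0599 and 0.0175, edgeR). Without replicate 2 at 20 DAA, ASR1 had a log2 fold change of 1.09 and did not pass (adjusted p = 0.0313, edgeR), whereas AOX1a passed (adjusted p = 0.00777, edgeR). Both genes passed when either library at 68 DAA was left out.

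**Figure D2:**
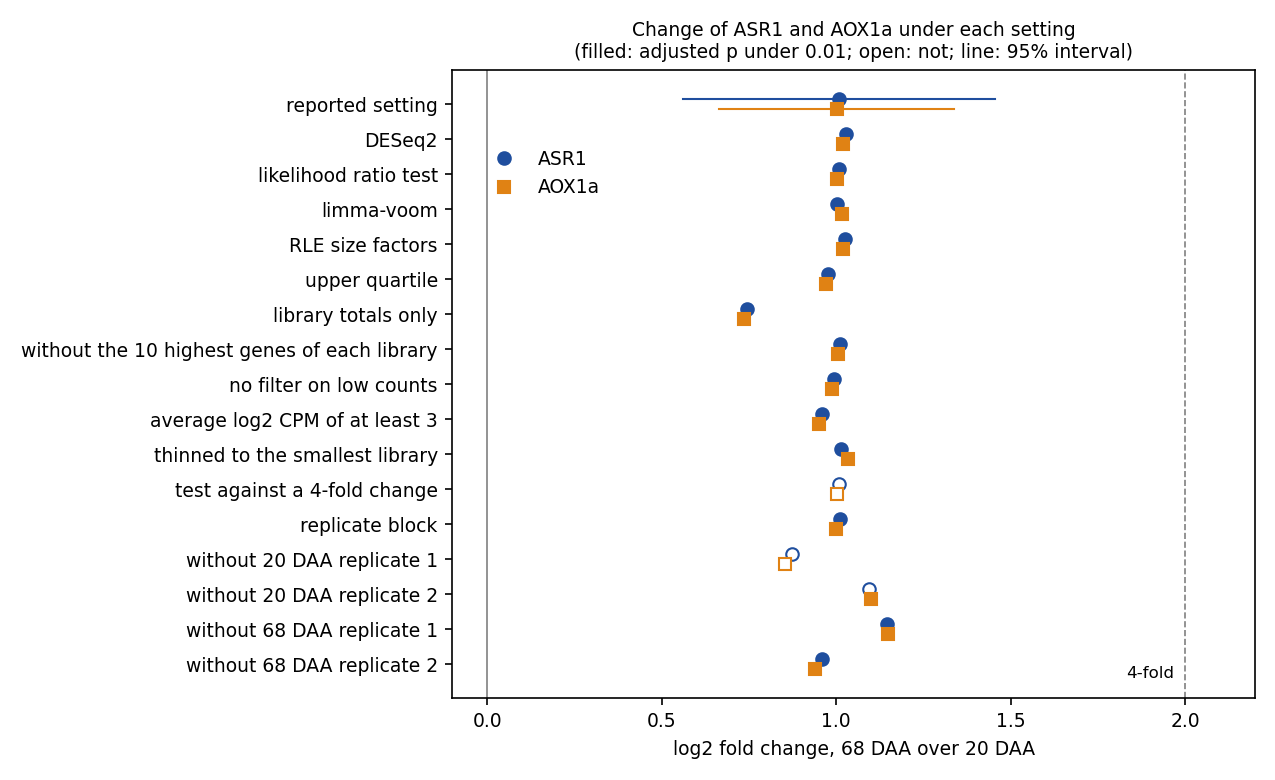
Log2 fold change of ASR1 (circles) and AOX1a (squares), 68 DAA over 20 DAA, in the reported setting and in each alternative, with filled symbols where the adjusted p was under 0.01. All values lie between 0 and the dashed line of a 4-fold change, from 0.74 for AOX1a with libraries scaled by their totals only to 1.15 for both genes without replicate 1 at 68 DAA.

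The levels of the 2 genes relative to the other genes were very different. Per kilobase of coding length, ASR1 was at 1586 and 1756 CPM per kb in replicates 1 and 2 at 68 DAA and at 769 and 893 CPM per kb at 20 DAA. These levels ranked 67 and 70 among the 17160 tested genes at 68 DAA, and 145 and 117 at 20 DAA. Among the 32 tested genes of the homolog list, ASR1 ranked 4 at 68 DAA, after PG2 (a pectin-degrading polygalacturonase), SGR1 (a chlorophyll degradation protein) and a MADS-RIN gene (a ripening transcription factor), and it ranked 1 at 20 DAA. ASR1 was therefore among the most abundant transcripts already in the green fruit, where these 3 ripening genes were at 21.9 CPM per kb or less.

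AOX1a was at 40.7 and 45.8 CPM per kb in replicates 1 and 2 at 68 DAA, and at 19.8 and 23.5 CPM per kb at 20 DAA. It ranked 4561 and 4044 among the tested genes at 68 DAA, and 7990 and 7095 at 20 DAA. In other words, its level was at or above that of 73.4% and 76.4% of the tested genes at 68 DAA, and of 53.4% and 58.7% of them at 20 DAA. Among the 32 tested homologs it ranked 15 at 68 DAA and 22 at 20 DAA.

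The ratio between the 2 genes was nearly the same in the 4 libraries. ASR1 had 29.5 and 29.0 counts for each count of AOX1a in replicates 1 and 2 at 68 DAA, and 29.4 and 28.8 at 20 DAA. The highest ratio was 1.02 times the lowest, and the exact 95% counting intervals overlapped, from 27.0 to 32.2 and from 27.4 to 30.8 at 68 DAA and from 27.0 to 31.9 and from 26.6 to 31.3 at 20 DAA. The ratios thus lay closer together than the counts of AOX1a can resolve. A ratio within a library does not depend on how the library is scaled. Per kilobase of coding length, ASR1 was from 38.1 to 39.0 times as abundant as AOX1a.

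**Figure D3:**
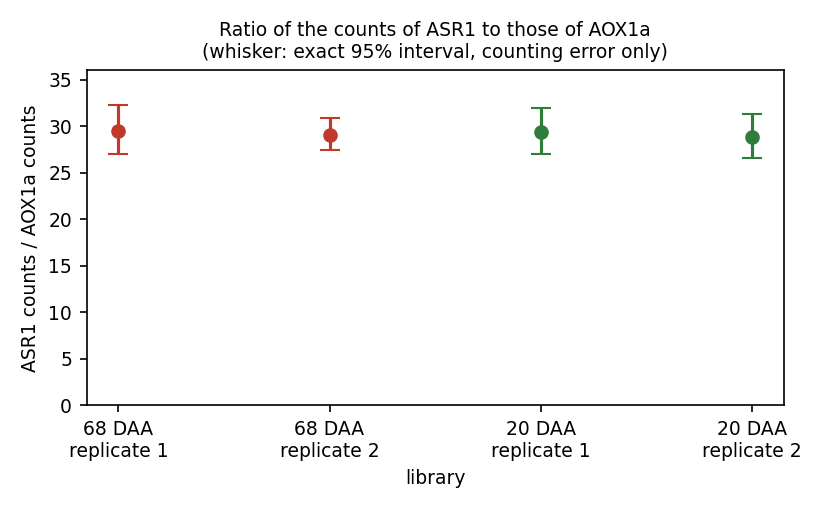
Counts of ASR1 divided by counts of AOX1a in each library, with exact 95% intervals that cover counting error only. The ratios lie between 28.8 and 29.5, and each lies inside the interval of every other library.

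To find the genes with the most similar pattern, log2 CPM (prior count 2) was centred on the mean of the 4 libraries, and the Euclidean distance to every other tested gene was computed. Of 17159 genes, AOX1a was the nearest to ASR1, and ASR1 the nearest to AOX1a (distance 0.0265, where the median gene was at 1.35 from ASR1 and at 1.34 from AOX1a). This distance is a description over 4 libraries, with no test. The order was sensitive to single libraries, since AOX1a ranked between 7 and 18 by its distance to ASR1 with a library left out in turn (18 without replicate 1 at 20 DAA), and 5 when all libraries were thinned to the total of the smallest.

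Among genes without a name in the files, CA.PGAv.1.6.scaffold157.17 was the closest to ASR1 (distance 0.0308), with 3.26 and 3.58 CPM at 68 DAA and 1.49 and 1.76 CPM at 20 DAA, and it did not pass the FDR limit (adjusted p = 0.0141, edgeR). The closest to AOX1a was CA.PGAv.1.6.scaffold1694.1 (distance 0.0395), with 19.1 and 21.5 CPM at 68 DAA and 9.42 and 11.3 CPM at 20 DAA. The distances take no account of counting error, which is relatively larger at low levels such as those of CA.PGAv.1.6.scaffold157.17. Within the homolog list, the next gene after the pair was SlDML2, a DNA demethylase of the DEMETER-LIKE family. It stood at rank 864 by its distance to ASR1 and at rank 880 by its distance to AOX1a. SlDML2 had 344 and 357 CPM at 68 DAA, against 204 and 188 CPM at 20 DAA (log2 fold change 0.84, adjusted p = 0.00160, edgeR). In SlDML2 the higher library at 20 DAA was replicate 1, whereas in ASR1 and AOX1a it was replicate 2.

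ASR1 is preceded on the same strand by 3 gene models, of which 1 was lower at 68 DAA, 1 did not pass the test and 1 was higher. Like ASR1, each has 2 exons, and the coding lengths are 333, 336 and 339 bp, shorter than the 840 bp of ASR1. The files give no name to these models, and their sequences were not compared with that of ASR1. Whether 1 of them, rather than the gene called ASR1 here, is the ortholog of tomato ASR1 was thus not checked. Only the nearest model on each side was set to be described, and the others were added after their values were seen. The nearest, from 197511929 to 197512866 and 6832 bp before ASR1, had 71.2 and 67.8 CPM at 68 DAA, against 294 and 325 CPM at 20 DAA. It fell by 2.16 on the log2 scale (adjusted p = 4.4e-05, edgeR), which made it a DEG, as were 18.7% of all tested genes in that direction.

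The next model before ASR1, from 197474072 to 197474942, had 36.2 and 56.5 CPM at 68 DAA and 40.3 and 61.3 CPM at 20 DAA. The stages overlapped, and the difference did not pass the test (log2 fold change -0.12, 95% interval from -0.82 to 0.57). The farthest of the 3, from 197432521 to 197433507, had 467 and 547 CPM at 68 DAA, against 239 and 198 CPM at 20 DAA. Like ASR1 it was higher at 68 DAA, with a log2 fold change of 1.21 (95% interval from 0.80 to 1.62, adjusted p = 0.00119, edgeR). On the other side of ASR1 the nearest model lies 247859 bp away on the minus strand, with 5.33 and 4.95 CPM at 68 DAA and 4.36 and 3.60 CPM at 20 DAA, a difference that did not pass the test (log2 fold change 0.36, adjusted p = 0.201, edgeR).

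**Figure D4:**
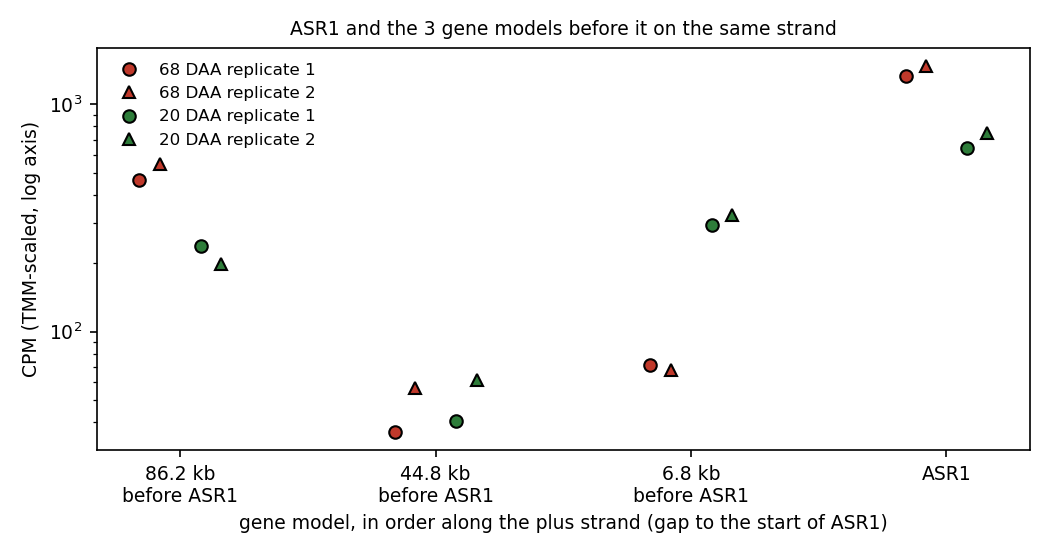
CPM (log axis) of ASR1 and of the 3 gene models before it on the plus strand, in order along the chromosome, with a point for each library. The model 6.8 kb before ASR1 is lower at 68 DAA, at 71.2 and 67.8 CPM against 294 and 325 CPM at 20 DAA, whereas ASR1 is higher at 68 DAA.

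Neither neighbour of AOX1a had an adjusted p under 0.01 with a higher level at 68 DAA. The model 3714 bp before it on the same strand had 2 and 1 counts at 68 DAA and no count at 20 DAA, and was under the expression limit. The model 6192 bp after it, on the minus strand, had 88.7 and 101 CPM at 68 DAA, against 133 and 127 CPM at 20 DAA. Its log2 fold change was -0.45 (95% interval from -0.74 to -0.16) and did not pass the FDR limit (adjusted p = 0.0158, edgeR). Both libraries at 68 DAA were below those at 20 DAA in the second model, whereas in AOX1a they were above them. Whether these changes differ was not tested.

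Of the other 36 pepper genes in the homolog list, 30 passed the expression limit. At an FDR under 0.01, 11 of them were higher and 12 lower at 68 DAA, and 7 did not pass, beside 25.7% higher and 32.0% lower among all tested genes. No statement about the list is drawn from these counts, nor from those of its groups below, which hold 2 to 6 tested genes each. Of the 11 higher genes, 6 changed at least 4-fold, and the other 5 changed by less, as ASR1 and AOX1a did. These 5 were Lutescent 2, a chloroplast protease (log2 fold change 0.83), SlDML2, the wall enzyme XTH5 (1.29), the MADS-box factor TAGL1 (1.30) and a chalcone synthase gene, CHS1 (1.91), whose homolog RefSeq lists as a pseudogene. By their log2 fold changes ASR1 ranked 11 and AOX1a ranked 12 of the 32 tested genes. The median over the other 30 was 0.32, against -0.04 over all tested genes.

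Among genes for ethylene perception and response, 0 of 5 were higher at 68 DAA and 1 was lower (all tested genes, 25.7% and 32.0%). This was the receptor ETR4 (20.6 ± 5.34 CPM at 68 DAA and 50.7 ± 2.47 CPM at 20 DAA, SD, n = 2 each, log2 fold change -1.31). The smallest change was that of a TCTR1 kinase gene (log2 fold change -0.02, adjusted p = 0.912, edgeR). The transcription factor ERF6 did not pass, with 89.7 and 97.4 CPM at 68 DAA and 70.1 and 73.6 CPM at 20 DAA (log2 fold change 0.38, adjusted p = 0.0198, edgeR). Nor did the stress-related factor NAC1, whose log2 fold change of 1.21 was higher than those of ASR1 and AOX1a but rested on 50 to 112 counts per library (adjusted p = 0.0114, edgeR).

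In the list of primary metabolism, 2 of 4 tested genes were lower at 68 DAA and 0 were higher (all tested genes, 32.0% and 25.7%). GDH1, glutamate dehydrogenase, which like the alternative oxidase is a mitochondrial enzyme, had 38.5 and 43.1 CPM at 68 DAA, against 134 and 119 CPM at 20 DAA. The stages did not overlap, and the direction was opposite to that of AOX1a (log2 fold change -1.63, adjusted p = 0.000121, edgeR). The spermidine synthase gene (spdsyn) was lower as well, with a log2 fold change of -1.15. The other 2, CGS of methionine synthesis (-0.63, adjusted p = 0.0111, edgeR) and SlscADH1 (0.55, adjusted p = 0.320, edgeR), did not pass.

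Of the ripening transcription factors 4 of 6 tested were higher and 1 lower at 68 DAA, and of the enzymes of colour and cell wall 4 of 6 were higher and 2 lower (all tested genes, 25.7% higher and 32.0% lower). All 4 genes grouped here as green fruit regulators, GLK2, ARF4, FUL2 and MADS-box protein 1, were lower. FUL2 was placed in this group although the study describes it as a positive regulator of fruit maturation. Of secondary metabolism and aroma, 2 of 3 tested genes were lower, while the other 1, CHS1, was higher. Lutescent 2 and SlDML2 belong to none of these groups, and both were higher.

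**Figure D5:**
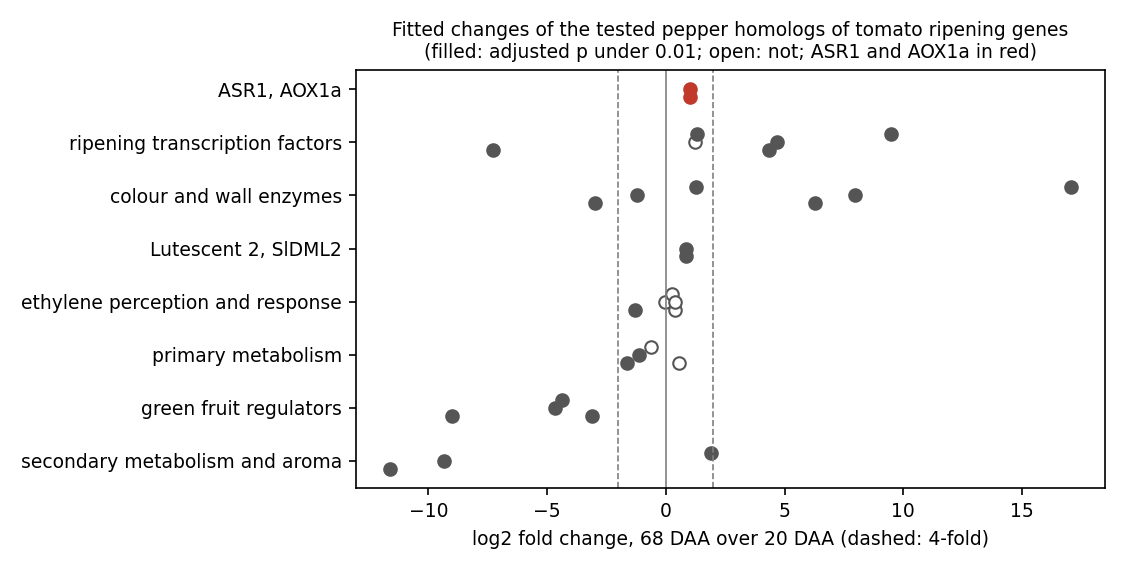
Log2 fold changes, 68 DAA over 20 DAA, of the 32 tested genes of the homolog list by group, with filled symbols where the adjusted p was under 0.01, and with those of PG2 and NSGT1 set in part by the prior count because a library or a stage had no count. ASR1 at 1.01 and AOX1a at 1.00 sit between 0 and the dashed line of a 4-fold increase.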

How the data were processed

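The authors deposited raw counts per gene with no normalization. Trimming was done with Trimmomatic 0.36, alignment to the CM334 genome with HISAT2 2.1.0, and counting with HTSeq 0.11.0. The strand setting is not given in the sources used here. The deposited annotation gave coordinates and lengths (other units). Entries that name no gene (from 31.7% to 38.2%) were left out. Libraries were scaled by TMM. Genes whose average log2 CPM reached 1 (17160 genes) were tested with the quasi-likelihood test of edgeR 4.0.16 in R 4.3.3, and p-values were adjusted over all of them by the Benjamini-Hochberg method. Intervals of log2 fold changes come from that fit. Counting intervals are exact 95% intervals and cover counting error only. Precision is lowest in replicate 1 at 68 DAA.

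Replicates are separate collections of fruits. The procedure was checked on simulated counts with 200 changed genes, as many raised as lowered. In the data 57.7% of the tested genes had an FDR under 0.01, so that the check does not bear on the scaling. The alternatives were DESeq2 1.42.0, limma-voom (limma 3.58.1), the likelihood ratio test, a test against a 4-fold change, no fold limit, other scalings and filters, thinned libraries, a block for the replicate number, and leaving out each library. The repeats of the ranking by distance were added after seeing the data. The genes and lists were chosen with earlier results of these data known. The genes named were ASR1, AOX1a, the genes nearest to them in pattern and on the chromosome, and members of lists of homologs, with the largest and smallest changes of a list as examples. ERF6, NAC1, FUL2, spdsyn, CGS and the genes that changed under 4-fold were added after their values were seen. ASR and CHS genes form families in plants, and reads shared between their copies were not assessed. Figures were drawn with matplotlib 3.10.9.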

Additional observations from a re-analysis of the deposited data

How the results depend on the processing

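Of the alternatives tried, 15 refitted the fold change of ASR1 and AOX1a, and both genes were higher at 68 DAA in each of them, with log2 fold changes from 0.75 to 1.15 for ASR1 and from 0.74 to 1.15 for AOX1a. ASR1 passed the FDR limit under 13 of them and AOX1a under 14. The fold limit does not enter the FDR. Against a 4-fold change, the log2 fold changes of 1.01 and 1.00 did not pass (adjusted p = 1 for both, edgeR). With a library left out in turn, the log2 fold change ranged from 0.87 to 1.15 for ASR1 (adjusted p from 0.00134 to 0.0599, edgeR) and from 0.85 to 1.15 for AOX1a (adjusted p from 0.000313 to 0.0175, edgeR). The smallest values of the other alternatives, 0.75 and 0.74, came from scaling by library totals only, which moved the median of all genes to -0.31, and relative to that median the changes were 1.06 and 1.05. With that scaling the levels at 68 DAA were 1525 CPM per kb for ASR1 and 39.4 CPM per kb for AOX1a. The coding length gave the same levels as the exon length, since the exons hold no UTR. With no filter on low counts the median of all genes was -0.25.

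The DEGs lower at 68 DAA numbered 3205, against 5489 with no fold limit and 2032 with the expression limit raised to an average log2 CPM of 3, and from 2820 to 3469 with a library left out. The DEGs higher at 68 DAA numbered 1410, against 4415 with no fold limit. The study, whose analysis also took in samples of a cultivated pepper, reported fewer DEGs in each direction between these stages. Of the homologs, 25 passed the FDR limit, against 14 in the test against a 4-fold change. The replicate numbers mark no shared batch in the labels, and the deviations of same-numbered libraries were barely correlated (r = 0.0251 over genes). With the replicate number as a block, the log2 fold changes were 1.01 and 1.00, and 3237 genes were lower and 1428 higher DEGs, and no call of ASR1 or AOX1a changed. The causes of these differences were not tested, beyond the change in the limit or in the genes kept.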
